A study of Mus musculus with 6 samples.

Results

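The genes described here are 10 transcripts that low oxygen is known to induce and that do not encode glycolytic enzymes: Ndrg1, Ddit4, Vegfa, Ak4, Fam162a, Higd1a, Mxi1, Bhlhe40, Nfil3 and Ankrd37. They were taken by gene name from a list of targets of hypoxia-inducible factor 1 (HIF-1), and all 10 were present among the 11175 genes listed. All 10 also passed the filter of a mean of at least 1 FPKM (fragments scaled to transcript length and to all mapped fragments), which 10887 genes passed. RNA came from splenic CD8+ T cells of wild-type (WT) mice, stimulated for 48 h with antibodies against CD3 and CD28. In 3 libraries the cells had been cultured with DOPAC (3,4-dihydroxyphenylacetic acid, a catechol product of dopamine breakdown), and in 3 Control libraries without it. The sources used here do not give the dose of DOPAC, the age of the mice or the oxygen level of the culture. The labels do not say whether replicates came from separate animals or cultures, so the p-values reflect only how far these libraries scatter, and that scatter may be technical.

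HIF-1 joins an alpha subunit, encoded by Hif1a, to the partner encoded by Arnt. When oxygen is present, prolyl hydroxylases mark the alpha subunit for the VHL protein, which sends it to be degraded, so HIF-1 activity is set largely at the protein level. In activated CD8+ T cells the alpha subunit also accumulates at normal oxygen after antigen receptor stimulation, and it raises both glycolytic genes and a second set of genes for mitochondrial adaptation, growth restraint, transcriptional repression and blood vessel growth. No HIF-1 protein and no DNA binding were measured here, so membership of the group rests on what is known of these genes elsewhere.

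Across the whole table the comparison of DOPAC with Control gave no call. In the limma fit 0 of 10887 genes (0%) passed an adjusted p of 0.05 by Benjamini and Hochberg, the lowest was 0.801, and 456 genes had an unadjusted p under 0.05. Control replicate 1 stood apart from the other libraries: its share of all squared deviations from group means was 50.6%. Genes with a summed exon length over 500 and up to 1000 bp were high in it by a median of 0.60 on the log2 scale. Genes over 8000 bp were low in it, with a median of -0.67 on that scale. The 8 markers of CD8+ T cells, among them Cd8a, Cd8b1 and Cd3e, summed to between 963 and 1074 FPKM in DOPAC libraries and between 1019 and 1082 FPKM in Control libraries. Markers of other cells were also present. Of 4 CD4+ T cell markers, only Ccr4 was in the table, at 11.5 to 14.9 FPKM in DOPAC libraries and 8.68 to 11.1 FPKM in Control libraries. The 3 macrophage markers in the table, of 10 listed, summed to 4.77 to 13.0 FPKM in DOPAC libraries and 15.4 to 35.2 FPKM in Control libraries. The 5 stromal and endothelial markers, of 8 listed, summed to 6.78 to 29.5 FPKM in DOPAC libraries and 43.2 to 47.5 FPKM in Control libraries. The 2 erythroid markers, of 6 listed, summed to 0.280 to 3.02 FPKM in DOPAC libraries and 2.72 to 10.4 FPKM in Control libraries, and the 2 B cell markers, of 7 listed, to 127 to 155 FPKM in DOPAC libraries and 145 to 156 FPKM in Control libraries, almost all of it Ighm. No marker in the table was at 0 in any library. The part of these other cells in the values below was not tested, and in bulk samples fewer cells of a type and less RNA per cell cannot be told apart.

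All 10 genes had a positive log2 fold change, where 62.1% of all genes had one. In 8 of the 10 every DOPAC library lay above every Control library, which was so for 12.4% of all genes, and 7 of the 10 had an unadjusted p under 0.05 with a higher level in DOPAC libraries, which was so for 2.73% of all genes. No member passed the threshold once p-values were adjusted over all genes: the adjusted p from limma was 0.883 for Higd1a and 0.801 for each of the other 9. The median log2 fold change of the 10 genes was 0.68, on the log2(FPKM + 1) scale that understates the change of genes with low levels, and the median of all genes was 0.066. Without Control replicate 1 these medians were 0.62 and -0.011. In that fit all 10 genes had a positive value (47.3% of all genes), 0 of the 10 passed the adjusted threshold (0.0184% of all genes, lowest adjusted p of a member 0.295), 9 of the 10 did not overlap between groups (15.3% of all genes) and 8 had an unadjusted p under 0.05 (5.57% of all genes).

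**Figure D1:**
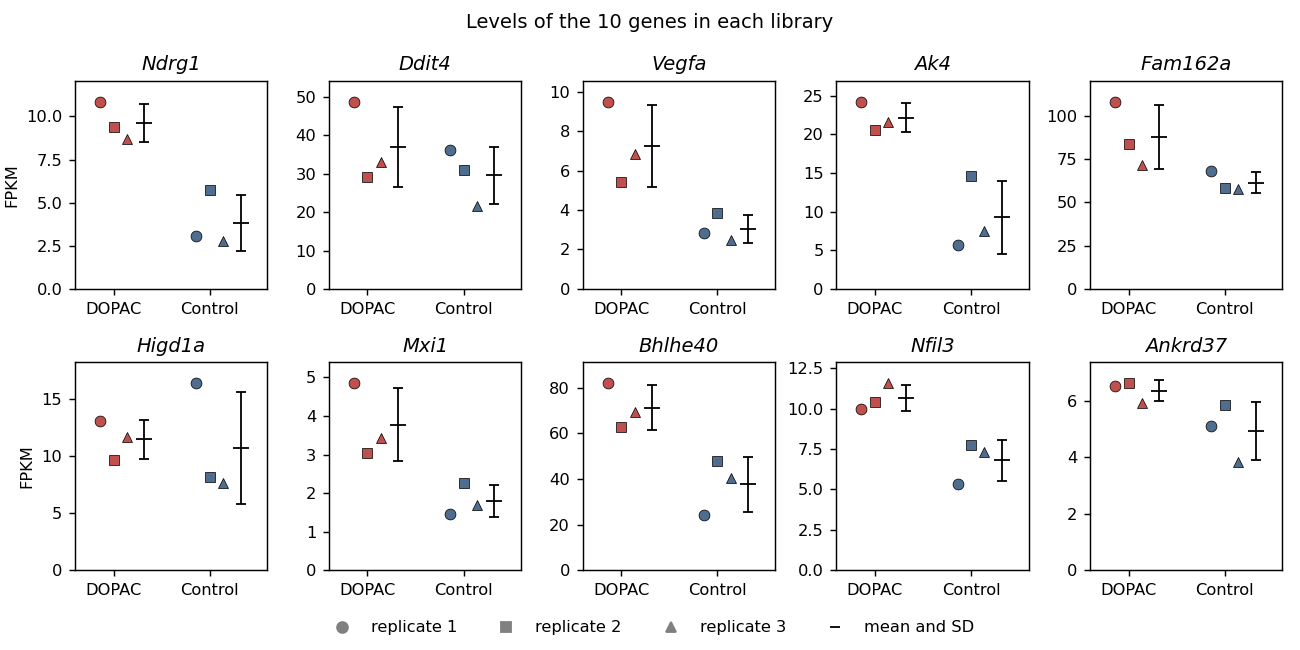
FPKM of each gene (vertical axes, each from 0) in the 3 DOPAC and the 3 Control libraries, with symbols for replicate numbers and a bar for the mean and SD of each group. DOPAC points lie above all Control points in 8 genes, and the groups overlap for Ddit4 and Higd1a.

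Ndrg1 and Ddit4 encode stress proteins that restrain growth or activation. Positions here and below are those of GENCODE M21 on GRCm38 (mm10). Ndrg1 (ENSMUSG00000005125, chr15:66929318-66969640) is described in mouse T cells as a factor of anergy, a state of unresponsiveness. It measured 10.8, 9.36 and 8.70 FPKM in DOPAC libraries 1, 2 and 3, against 3.08, 5.71 and 2.76 FPKM in Control libraries 1, 2 and 3. The lowest DOPAC library was 1.52 times the highest Control library, which was replicate 2. The means were 9.64 ± 1.10 FPKM with DOPAC and 3.85 ± 1.62 FPKM in Control (SD, n = 3 each), and the log2 fold change was 1.18 (95% interval 0.61 to 1.75). By its unadjusted p Ndrg1 ranked 14 of 10887 genes.

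Ddit4 (ENSMUSG00000020108, chr10:59949669-59951834) encodes REDD1, which acts through the TSC1-TSC2 complex to hold down the growth kinase complex mTORC1. Its level was 48.7, 29.2 and 33.0 FPKM in DOPAC libraries 1 to 3, against 36.1, 31.1 and 21.5 FPKM in Control libraries 1 to 3. The groups overlapped: DOPAC replicates 2 and 3 lay below Control replicate 1, and replicate 2 also below Control replicate 2. With means of 37.0 ± 10.4 FPKM with DOPAC and 29.6 ± 7.40 FPKM in Control (SD, n = 3 each), the log2 fold change of 0.31 had a 95% interval of -0.30 to 0.92 and did not exceed the spread between replicates. Single libraries moved it widely, to 0.099 without DOPAC replicate 1, 0.11 without Control replicate 3 and 0.47 without Control replicate 1.

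Vegfa (ENSMUSG00000023951, chr17:46016993-46032369) encodes the vascular endothelial growth factor, a secreted protein that drives vessel growth and that CD8+ T cells can release at low oxygen. DOPAC libraries 1 to 3 held 9.48, 5.40 and 6.84 FPKM, against 2.83, 3.83 and 2.47 FPKM in Control libraries 1 to 3. DOPAC replicate 1 was the highest, and the groups did not overlap. The log2 fold change was 1.01 (95% interval 0.48 to 1.54). The other ligand in the table, Vegfb, measured 4.50, 3.41 and 4.19 FPKM with DOPAC, against 5.26, 6.86 and 4.38 FPKM in Control, with a log2 difference of -0.36 (95% interval -0.79 to 0.075). The co-receptor gene Nrp1 stood at 0.033 (95% interval -0.49 to 0.56), or -0.21 without Control replicate 1. The other 8 VEGF ligand and receptor symbols of the list were not analysed here.

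Ak4, Fam162a and Higd1a encode mitochondrial proteins. Ak4 (ENSMUSG00000028527, chr4:101419277-101466995), a matrix member of the adenylate kinases, which balance adenine nucleotides, had the highest log2 fold change of the 10 genes. It measured 24.2, 20.5 and 21.7 FPKM in DOPAC libraries 1 to 3, against 5.71, 14.7 and 7.53 FPKM in Control libraries 1 to 3. The DOPAC libraries lay close together (22.1 ± 1.89 FPKM, SD, n = 3), while the Control libraries were spread widely (9.30 ± 4.74 FPKM, SD, n = 3) and replicate 2 was the highest. The log2 fold change was 1.26 (95% interval 0.53 to 1.99), and 10 of the 10887 genes had a higher one. Related kinases gave lower values: Ak3, of the matrix, had 0.12 (95% interval -0.26 to 0.49), and Ak6 had 0.041 (95% interval -0.33 to 0.41). Without Control replicate 1 the values were 1.00 for Ak4 (95% interval 0.39 to 1.61), -0.024 for Ak3 and 0.15 for Ak6. With all 6 libraries the interval of Ak4 did not overlap those of Ak3 and Ak6, and the differences between genes were not tested.

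Fam162a (ENSMUSG00000003955, chr16:36043761-36071594), known for a part in cell death under low oxygen, was the most abundant of the 10 on the FPKM scale, which is per length. Its level was 108, 83.5 and 71.5 FPKM in DOPAC libraries 1 to 3, against 68.1, 58.2 and 57.6 FPKM in Control libraries 1 to 3. The groups were separated narrowly, the lowest DOPAC library being 1.05 times the highest Control library, and scaling all libraries to equal medians made them overlap. The log2 fold change was 0.49 (95% interval 0.068 to 0.92). Its summed exon length of 850 bp falls in the length class that was high in Control replicate 1, and without that library the log2 fold change was 0.57 (95% interval 0.15 to 0.98).

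Higd1a (ENSMUSG00000038412, chr9:121848563-121858362), an inner-membrane protein that acts on the assembly and activity of the respiratory chain, had the smallest log2 fold change. DOPAC libraries 1 to 3 measured 13.1, 9.63 and 11.7 FPKM, against 16.4, 8.13 and 7.64 FPKM in Control libraries 1 to 3. Control replicate 1 was the highest of all 6 libraries, and the 3 DOPAC libraries lay above the other 2 Control libraries. With all 6 libraries the log2 fold change was 0.16 (95% interval -0.53 to 0.84). Without Control replicate 1 it was 0.48 (95% interval 0.17 to 0.79, adjusted p = 0.295), and without Control replicate 3 it was -0.026. The related gene Higd2a, also of the respiratory chain, was 22.2, 21.6 and 17.9 FPKM with DOPAC, against 40.5, 20.1 and 23.1 FPKM in Control, so Control replicate 1 was again the highest library. The 4 measured genes of 7 on the list of HIGD relatives and respiratory chain partners had 0 positive log2 fold changes, against 62.1% of all genes. Their median was -0.34, or -0.018 without that library, and 0 passed the adjusted threshold. Among them Uqcrb, a subunit of the chain, was at 77.2 FPKM in Control replicate 1 and at most 30.3 FPKM elsewhere.

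Mxi1, Bhlhe40 and Nfil3 encode transcriptional repressors, and in all 3 the groups did not overlap. Mxi1 (ENSMUSG00000025025, chr19:53310518-53375810) pairs with MAX and opposes MYC. It was the least abundant of the 10, at 4.85, 3.04 and 3.43 FPKM in DOPAC libraries 1 to 3, against 1.45, 2.27 and 1.68 FPKM in Control libraries 1 to 3. The ratio of the mean FPKM was 2.09, and the log2 fold change was 0.76 (95% interval 0.31 to 1.21). Transcripts of the proteins it pairs with or opposes gave values near 0: the log2 fold change was -0.0017 for Myc (95% interval -0.39 to 0.39) and -0.14 for Max (95% interval -0.42 to 0.14).

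Bhlhe40 (ENSMUSG00000030103, chr6:108660629-108666925), a helix-loop-helix repressor of clock genes that also shapes cytokine production by T cells, measured 81.9, 62.6 and 69.4 FPKM in DOPAC libraries 1 to 3, against 24.5, 47.7 and 40.7 FPKM in Control libraries 1 to 3. Control replicate 1 was the lowest of all 6 libraries. The log2 fold change was 0.95 (95% interval 0.34 to 1.56) with all 6 libraries and 0.67 (95% interval 0.35 to 1.00) without that one. Nfil3 (ENSMUSG00000056749, chr13:52967209-52981073), a leucine zipper repressor that is likewise tied to the clock, measured 9.98, 10.4 and 11.6 FPKM in DOPAC libraries 1 to 3, against 5.34, 7.76 and 7.30 FPKM in Control libraries 1 to 3. It was the only one of the 10 genes in which DOPAC replicate 1 was the lowest DOPAC library. The log2 fold change was 0.59 (95% interval 0.20 to 0.98).

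Ankrd37 (ENSMUSG00000050914, chr8:45996902-46005707), an ankyrin repeat protein whose gene is a direct HIF-1 target, measured 6.51, 6.63 and 5.94 FPKM in DOPAC libraries 1 to 3, against 5.11, 5.87 and 3.84 FPKM in Control libraries 1 to 3. The groups were separated by a ratio of only 1.01 between the lowest DOPAC and the highest Control library, and they overlapped with quantile normalization, with equal medians and with the length trend removed. The log2 fold change was 0.32 with a 95% interval of -0.065 to 0.71, which includes 0, and it was 0.18 without Control replicate 3.

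**Figure D2:**
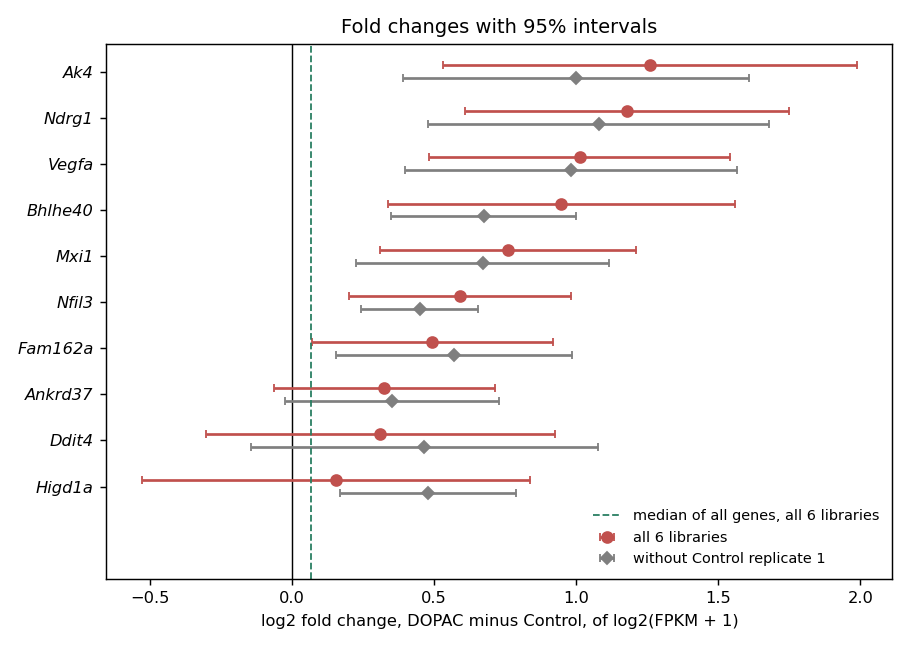
Log2 fold change (horizontal axis, DOPAC minus Control, of log2(FPKM + 1)) of each gene with its 95% interval, with all 6 libraries (circles) and without Control replicate 1 (diamonds); the dashed line is the median of all genes at 0.066. Intervals of 7 genes lie above 0 with all 6 libraries, and those of Ankrd37, Ddit4 and Higd1a include 0.

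In DOPAC libraries the order of mean level, on the FPKM scale, was Fam162a at 87.7, Bhlhe40 at 71.3, Ddit4 at 37.0, Ak4 at 22.1, Higd1a at 11.4, Nfil3 at 10.7, Ndrg1 at 9.64, Vegfa at 7.24, Ankrd37 at 6.36 and Mxi1 at 3.77 FPKM. In Control libraries it was Fam162a at 61.3, Bhlhe40 at 37.6, Ddit4 at 29.6, Higd1a at 10.7, Ak4 at 9.30, Nfil3 at 6.80, Ankrd37 at 4.94, Ndrg1 at 3.85, Vegfa at 3.04 and Mxi1 at 1.80 FPKM. With DOPAC the ranges over libraries of Fam162a and Bhlhe40 overlapped, and so did those of each pair of neighbours from Higd1a down to Ankrd37. In Control libraries the ranges of Bhlhe40 and Ddit4 overlapped, and those of each pair of neighbours from Higd1a down to Vegfa. Ak4, Ndrg1 and Vegfa each stood 1 place higher in the order with DOPAC, while Fam162a, Bhlhe40, Ddit4, Nfil3 and Mxi1 held the same place in both groups.

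The libraries of each group did not rank alike over the 10 genes. DOPAC replicate 1 was the highest DOPAC library in 8 of the 10, where it was so in 38.9% of all genes, Nfil3 and Ankrd37 being the exceptions. Control replicate 2 was the highest Control library in 7 of the 10, against 40.0% of all genes. The remaining 3, Ddit4, Higd1a and Fam162a, were highest in Control replicate 1. Control replicate 3 was the lowest Control library in 6 of the 10, against 11.0% of all genes, while Control replicate 1, the lowest in 65.4% of all genes, was the lowest in Ak4, Mxi1, Bhlhe40 and Nfil3. On average over the 10 genes the deviation from the gene's mean was 0.56, 0.21 and 0.29 in DOPAC libraries 1 to 3 and -0.42, -0.13 and -0.51 in Control libraries 1 to 3 on the log2(FPKM + 1) scale. Between libraries of the same number, 8 genes were higher with DOPAC in all 3 pairs, and the share of all genes for which this held is not given here. Ddit4 differed by -0.087 in replicate 2 and Higd1a by -0.30 in replicate 1.

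**Figure D3:**
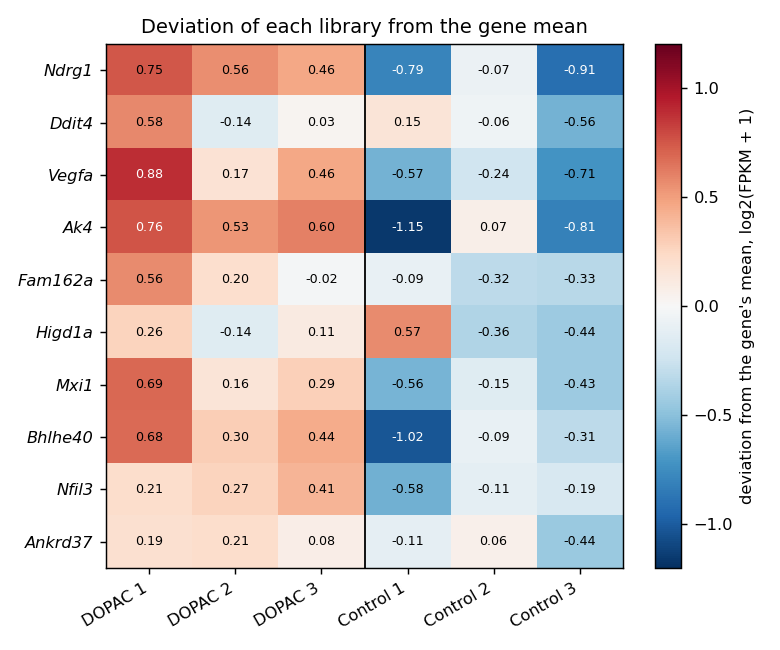
Deviation of each library (columns) from the mean over all 6 libraries of each gene (rows), as log2(FPKM + 1); red is above the mean, blue below, and the black line parts DOPAC from Control. All 10 genes lie above their mean in DOPAC replicate 1 and below it in Control replicate 3, and Higd1a in Control replicate 1 stands out at 0.57.

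The cDNA kits do not mark the strand, so reads from overlapping genes cannot be told apart. In that annotation the exons of Ddit4, Ak4, Nfil3 and Vegfa overlapped no other gene. The overlap was 556 of 6596 bp of exon for Ndrg1, with Gm17035 and Gm2895, and 683 of 3040 bp for Higd1a, with the antisense gene Gm47112. It was 168 of 850 bp for Fam162a, with Wdr5b, 194 of 6823 bp for Mxi1, with Gm10197, and 118 of 4705 bp for Bhlhe40, with 0610040F04Rik. Ankrd37 shared 406 of 1539 bp with Ufsp2 and Lrp2bp. Lrp2bp was not among the genes listed, so its part in the value of Ankrd37 was not tested, and that value is uncertain. Ufsp2 measured 10.7, 9.49 and 9.34 FPKM in DOPAC libraries, against 5.77, 6.71 and 7.74 FPKM in Control libraries. Its log2 fold change was 0.49, and its part in the value of Ankrd37 was not tested either. Of the 50-base words in transcripts of Ak4, 10.2% were found in other genes, nearly all in the copy Ak3l2-ps, and for Higd1a 24.4%, in Gm47112 and the copies Gm9790 and Gm14925, which makes these values uncertain to that extent.

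The log2 fold changes of the 10 genes all had a positive sign, though not all differed beyond the spread between replicates, and their promoters were searched for the short core that HIF-1 binds, ACGTG or GCGTG. RefSeq promoters on GRCm38.p6, each 250 bases before to 50 after an annotated transcript start, were found for 8 of the 10 genes. Ndrg1 and Bhlhe40 are named only. Upstream stretches that lie outside any GENCODE exon are shown for 5 genes, chosen to span differences from large (Ak4) to small (Ddit4) and to include a gene without the core (Nfil3). They read 5′ to 3′ on the gene's strand, with each core, as ACGTG or GCGTG or as their reverse complements CACGT or CACGC, in capitals. The stretch of Ak4 is chr4:101419077-101419276 (plus strand), that of Fam162a chr16:36071595-36071684, of Ankrd37 chr8:45999868-46000067, of Ddit4 chr10:59951835-59952020 and of Nfil3 chr13:52981074-52981273 (all minus strand).
Ak4: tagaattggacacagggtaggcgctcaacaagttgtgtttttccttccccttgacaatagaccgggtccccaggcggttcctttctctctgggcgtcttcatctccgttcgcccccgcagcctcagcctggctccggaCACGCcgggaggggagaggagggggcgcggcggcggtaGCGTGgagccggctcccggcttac
Fam162a: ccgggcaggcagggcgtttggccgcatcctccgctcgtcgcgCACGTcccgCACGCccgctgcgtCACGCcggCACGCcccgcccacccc
Ankrd37: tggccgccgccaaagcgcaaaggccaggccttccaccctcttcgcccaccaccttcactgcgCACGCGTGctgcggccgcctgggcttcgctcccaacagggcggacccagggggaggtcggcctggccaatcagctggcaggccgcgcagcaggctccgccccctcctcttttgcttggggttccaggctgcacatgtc
Ddit4: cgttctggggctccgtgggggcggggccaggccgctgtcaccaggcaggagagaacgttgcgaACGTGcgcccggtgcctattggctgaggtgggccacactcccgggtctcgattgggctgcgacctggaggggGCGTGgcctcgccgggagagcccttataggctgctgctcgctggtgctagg
Nfil3: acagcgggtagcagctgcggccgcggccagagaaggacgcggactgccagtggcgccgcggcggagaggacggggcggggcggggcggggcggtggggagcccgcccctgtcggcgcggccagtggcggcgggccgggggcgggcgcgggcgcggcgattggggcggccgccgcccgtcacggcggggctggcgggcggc

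In the full windows of 300 bases, and in the window nearest to the GENCODE start of each gene, both strands held 6 matches in Fam162a, 4 in Ankrd37, 3 in Higd1a and 2 each in Ak4 and Ddit4. Those of Mxi1, Nfil3 and Vegfa held 0. The RefSeq start of the nearest window lay 5857 bp from the GENCODE start in Ankrd37 and 566 bp in Higd1a. In the other genes it lay at most 64 bp away. With all annotated starts counted, 7 of the 8 genes had a match in some window, Nfil3 being the exception, where 46.7% of all 27025 symbols had one, and 43.8% of all 32851 windows held one. With the nearest window of each gene alone, 5 of the 8 had a match. Windows of 1 gene can overlap, as 3 of the 4 of Ak4 do, which share the same matches. A window with 6 or more matches, as in Fam162a, was found in 0.694% of all windows. Matches overlap in places: in Ankrd37 a CACGC and a GCGTG share bases, in Higd1a 2 copies of GCGTG do, and the E-box CACGTG, which other factors bind, counts on both strands and occurred in 1 start of Ak4 (7.15% of all windows). The number of matches did not order the genes as their fold changes did, since Vegfa with 0 in its nearest window had a log2 fold change of 1.01 and Higd1a with 3 had 0.16. The known HIF-1 site of Vegfa lies farther upstream than these windows reach.

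**Figure D4:**
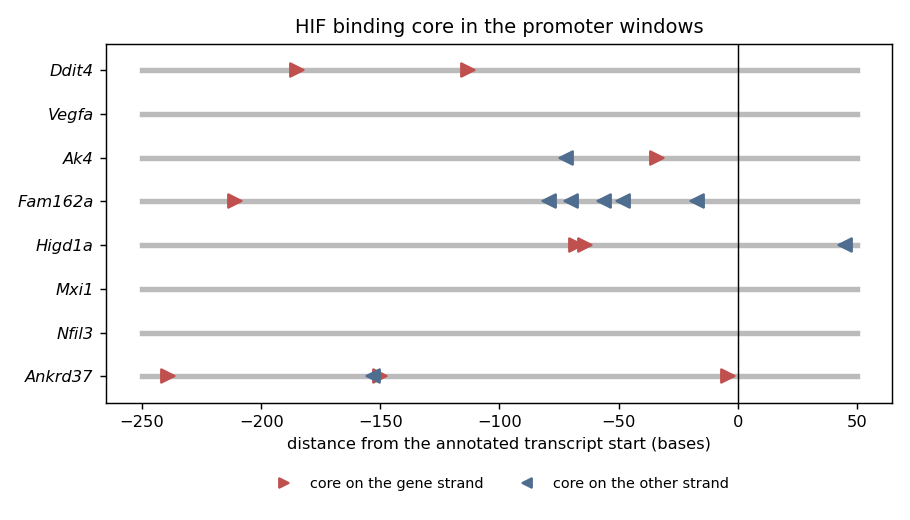
Position of each core match (triangles, pointing right on the gene's strand and left on the other strand) along the window from 250 bases before to 50 after the annotated start (grey bars), for the 8 genes with a RefSeq promoter. Fam162a holds 6 matches, and Vegfa, Mxi1 and Nfil3 hold 0.

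Most of the other HIF targets listed gave values of the same sign. Of 36 symbols listed for further HIF targets outside glycolysis, such as hydroxylases and mitophagy receptors, 28 were measured. The symbols include a second name of a measured gene. Positive log2 fold changes were found in 25 of these, against 62.1% of all genes, and 0 passed the adjusted threshold. An unadjusted p under 0.05 went with a higher level in 13, against 2.73% of all genes. It went with a lower level in 1, as it did in 159 of all 10887 genes. The median was 0.47. By the smallest p the first of the list were P4ha2 at 1.15 and Egln3 at 1.29, both prolyl hydroxylases, of collagen and of HIF. Next were the mitophagy receptors Bnip3 at 1.58 and Bnip3l at 1.27. P4ha2 averaged 0.37 FPKM in Control libraries and 2.05 FPKM in DOPAC libraries, so it passed the filter only through the DOPAC group. The lower gene was Lox, the collagen crosslinking enzyme, at -1.19, named after its value was seen. It measured 0.055, 2.32 and 2.39 FPKM in DOPAC libraries 1 to 3, against 4.05, 4.58 and 4.04 FPKM in Control libraries 1 to 3. The stromal marker Col3a1 was likewise lowest in DOPAC replicate 1, at 0.096 FPKM. The part of stromal cells in the value of Lox was not tested. Of 22 glycolytic targets, 20 were measured, 19 were positive with 0 past the adjusted threshold, and the median was 0.48. By the smallest p the first of these were the enzyme genes Pgk1 at 0.68 and Eno1 at 0.55. Next were the lactate exporter Slc16a3 at 1.34 and the glucose transporter Slc2a3 at 1.49. Without Control replicate 1 the medians of these lists were 0.36 and 0.46, beside the 0.62 of the 10 genes. The differences between the lists were not tested.

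The HIF system itself had 11 measured genes of 16 symbols listed, which include second names of measured genes. Their median log2 fold change was 0.18, with 7 positive, against 62.1% of all genes, and 0 past the adjusted threshold. Without Control replicate 1 the median was 0.015. Hif1a measured 73.6, 62.2 and 67.6 FPKM in DOPAC libraries, against 28.4, 56.2 and 54.9 FPKM in Control libraries. Its groups did not overlap, and its log2 fold change of 0.59 (95% interval -0.048 to 1.24) was 0.28 without Control replicate 1. Arnt had 0.18 (95% interval -0.32 to 0.67), or -0.044 without that library. Of the genes of the feedback on HIF, Egln1 and Egln3, which HIF-1 itself induces, were higher in value than Hif1a and Arnt. Vhl lay above Arnt but below Hif1a with all 6 libraries, and differences between these genes were not tested. The hydroxylase gene Egln1 had 0.74 (95% interval 0.20 to 1.28), or 0.53 without Control replicate 1. Egln3, which like Egln1 is on both lists, is given above. Vhl had 0.52 (95% interval 0.080 to 0.95), or 0.40 without Control replicate 1.

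**Figure D5:**
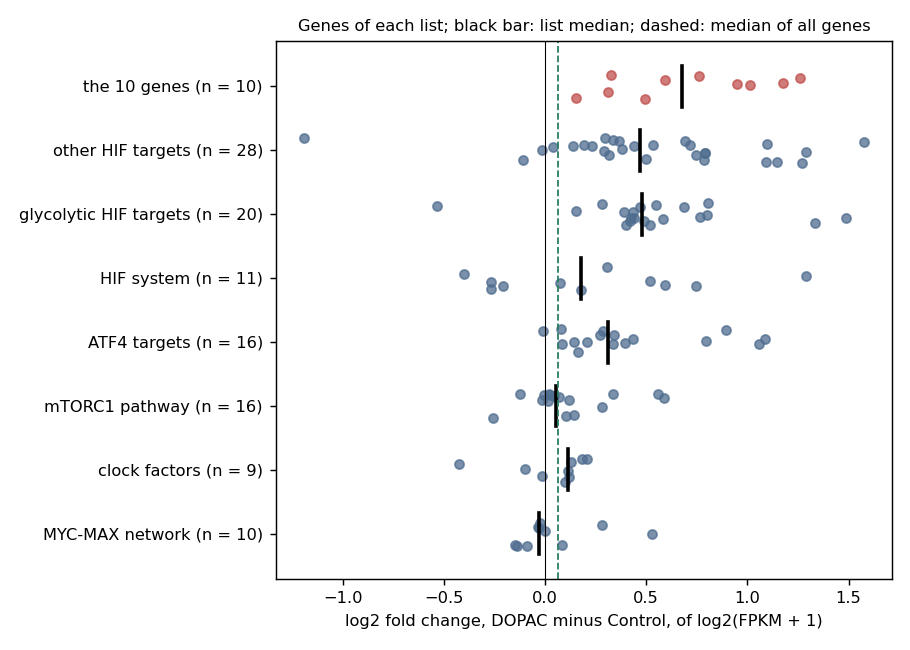
Log2 fold change (horizontal axis, DOPAC minus Control, of log2(FPKM + 1)) of each measured gene in 8 lists, with black bars at list medians and a dashed line at the median of all genes (0.066). The medians of the 10 genes (0.68), the other HIF targets (0.47) and the glycolytic targets (0.48) lie to the right of those of the mTORC1, clock and MYC-MAX lists; the vertical scatter within a list has no meaning.

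The pathways in which single members act gave lower medians. Of all genes 62.1% had a positive log2 fold change, or 47.3% without Control replicate 1, where the median of all genes was -0.011. For the mTORC1 pathway, on which REDD1 acts, 16 of 19 genes passed the filter. Of these, 12 were positive and 0 past the adjusted threshold, with a median of 0.056. Without Control replicate 1, 5 were positive and the median was -0.083. Txnip, an inhibitor of glucose uptake, had 0.59, or 0.36 without that library, and the mTORC1 inhibitor gene Sesn2, also a target of ATF4, had 0.33. The MYC-MAX network, to which Mxi1 belongs, had 3 positive of 10 measured of 14, 0 past the adjusted threshold, and a median of -0.028. The MAX partner gene Mga was highest there at 0.53 (95% interval -0.30 to 1.36), with Control replicate 1 at 4.64 FPKM and the other Control libraries at 13.2 and 12.2 FPKM, and without that library it was 0.10. Clock factors, to which Bhlhe40 and Nfil3 are tied, had 9 measured genes of 16 symbols listed, which include a second name of a measured gene. Of these 9, 6 were positive and 0 past the adjusted threshold. Their median was 0.11, or -0.089 without Control replicate 1. Among them the clock repressor gene Cry1 had 0.21 (95% interval -0.24 to 0.66), or 0.024 without it.

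Ndrg2, a relative of Ndrg1, measured 11.1, 6.58 and 6.99 FPKM in DOPAC libraries, against 6.07, 5.04 and 3.57 FPKM in Control libraries, which gave 0.64 on the log2 scale (95% interval 0.054 to 1.22). Ndrg3 had -0.12 (95% interval -0.43 to 0.18), or -0.20 without Control replicate 1, and its groups overlapped. Ddit4 and Vegfa are also known targets of ATF4, the factor of the amino acid stress response. Of 20 genes on the ATF4 list 16 were measured, 15 positive (62.1% of all genes) and 0 past the adjusted threshold, with a median of 0.31. The asparagine synthetase gene Asns had 1.06, the pseudokinase gene Trib3 0.89, the transcription factor gene Atf3 1.09 and the aminotransferase gene Gpt2 0.80. The share of either factor in the values of Ddit4 and Vegfa was not tested.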

How the data were processed

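RNA was sequenced from 3 DOPAC and 3 Control libraries of mouse CD8+ T cells, grouped by library name. Per the labels, RNA was isolated with TRIzol, and libraries were made with SMART-Seq HT and Nextera XT kits. Per the submitters' processing notes, cutadapt 1.9, HISAT2 2.2.1 and mm10 were used. The sources used here name neither the estimator of expression nor the annotation. Per the file headers the authors deposited FPKM for every gene in each library, so read depth is unknown and no counting interval is given. The deposited table also holds the authors' log2 fold change, which for all 11175 genes matched mean log2(FPKM + 1) of DOPAC minus Control to within 1e-06, and the authors' p-values, with 0 genes at an adjusted p under 0.05. Their test is not named, and every value printed was computed anew from the FPKM.

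Values were analysed as log2(FPKM + 1), without 288 genes with a mean under 1 FPKM. R 4.3.3 with limma 3.58.1 fitted a mean-variance trend model over all genes, with Benjamini-Hochberg adjustment at 0.05, and was tested on simulated data. The 10 genes and the lists were chosen with earlier results of these data known. Named genes were the 10 members, the up to 4 (HIF, glycolytic, ATF4 lists) or 2 genes of smallest p in each list, and close relatives. Deviations from group means correlated at 0.34, 0.16 and 0.28 between same-numbered libraries. All were above 0.1, which met the rule for treating the numbers as pairs. Control replicate 2 with DOPAC replicate 3, at 0.24, and Control replicate 3 with DOPAC replicate 2, at 0.19, also exceeded 0.1. Pairs of unlike number that held a replicate 1 were negative. The rule thus did not single out libraries of the same number. The intervals and p-values printed come from the fit without the block, and the fit with it was an alternative. No label ties the replicate numbers to an animal or a day. Alternatives were a filter of 5 FPKM or none, pseudocounts of 0.5 and 0.1, equal medians, quantile normalization, removal of the length trend, a replicate block, a robust variance model, library weights and leaving out each library. Figures used Python 3.11.15 and matplotlib 3.10.9.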

Additional observations from a re-analysis of the deposited data

How the results depend on the processing

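The median log2 fold change of the 10 genes stayed positive under all 16 alternatives, and ranged from 0.62 to 0.78 when a library was left out. With the replicate block it was 0.68, with 0 genes past the threshold, and the block changed no call. Library weights, whose fit did not converge fully, gave 0.49 and 2 genes past the threshold. Leaving out a library gave 0 to 2 such genes, the 2 without Control replicate 1, and none was a member. Of 159 refitted fold changes of single genes 158 kept their direction, and Higd1a without Control replicate 3 reversed to -0.026 (range over left-out libraries -0.026 to 0.48), for which the cause was not tested. Groups did not overlap in 6 genes with equal medians, where Fam162a joined Ankrd37, Ddit4 and Higd1a, and in 8 to 9 genes when a library was left out. Among all genes the groups were apart, with DOPAC higher, in 12.4% with all 6 libraries and in 15.3% without Control replicate 1. The share under the other alternatives is not given here. Mxi1 had no value under the filter of 5 FPKM. The median of the HIF system was 0.015 without Control replicate 1 and 0.31 without Control replicate 3. FPKM hold no read counts, so what depth limits is unknown, most of all for Mxi1 at under 5 FPKM. With 3 libraries a group, the p of a 2-sided exact permutation test of unpaired groups could not fall below 0.1.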
